A study of Mus musculus with 6 samples.

Results

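Pdzk1ip1 and Ctla2a are 2 abundant mRNAs of mouse platelets, out of 24346 gene symbols measured. Both were selected on measured values: they were chosen because their level was about 2-fold higher in platelets that carry a mutant integrin β3 than in wild-type platelets. That contrast is therefore a description for these 2 genes, and no test of it is given. RNA sequencing was done on platelets from the blood of homozygous β3(R734C) knock-in mice (KI, 3 libraries) and of wild-type mice (WT, 3 libraries). R734C is a missense change in the cytoplasmic tail of integrin β3, the platelet fibrinogen receptor subunit encoded by Itgb3, and the question was which platelet mRNAs differ between the genotypes. The labels give neither age nor sex, nor whether the libraries of a group came from separate mice, and they name no treatment, so p-values measure only the spread between these samples. The labels name no restriction of the allele to a cell type.

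Pdzk1ip1, also called MAP17, encodes a small membrane protein that binds the PDZ-domain adaptor PDZK1 through its C-terminal end. It is best known from the proximal tubule of the kidney, where it is a partner of the glucose transporter SGLT2, and in mice it also marks blood stem cells. Ctla2a encodes cytotoxic T lymphocyte-associated protein 2 alpha, a protein first found in activated mouse T cells and mast cells that resembles the propeptide of cathepsin L and inhibits cysteine proteases of that family. Platelets have no nucleus, so their mRNA comes from the megakaryocytes that shed them.

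Libraries differed in red cell RNA. Haemoglobin genes made up 20.4%, 3.20% and 4.04% of total FPKM in KI libraries 1, 2 and 3, and 12.8%, 7.20% and 5.71% in WT libraries 1, 2 and 3. FPKM counts sequenced fragments, scaled for the length of the transcript and the size of the library. Total FPKM was 758381 to 856863 in KI libraries and 641278 to 708432 in WT libraries, and 8383 to 8998 genes were above 0 in KI libraries against 8600 to 9006 in WT libraries. All 10 platelet markers examined were present, with summed levels of 48225 to 53578 FPKM in KI libraries and 51943 to 54094 FPKM in WT libraries. Of the 10, Gp1ba and Tubb1 fell, as did 3.99% of all tested genes. Gp1ba, which encodes the von Willebrand factor-binding chain of a platelet receptor, averaged 192 ± 1.68 FPKM in KI platelets and 305 ± 41.0 FPKM in WT platelets (SD, n = 3 each; log2 fold change -0.65, SE 0.11, limma adjusted p = 0.0139). Tubb1, which encodes the platelet β-tubulin, averaged 3710 ± 174 FPKM in KI platelets and 6574 ± 414 FPKM in WT platelets (SD, n = 3 each; log2 fold change -0.82, SE 0.08, limma adjusted p = 0.00759). Neither call held without the variance trend (adjusted p = 0.0759 and 0.0623) or without KI library 3 (0.0712 and 0.0554), and that of Gp1ba was also lost without KI library 2 (0.0618), WT library 2 (0.0593), WT library 3 (0.0643) or a filter on low values (0.0538). Their part in the differences of Pdzk1ip1 and Ctla2a was not tested. Depth relative to WT library 1, read from the commonest ratio of low values, was 0.878 to 1.05 in KI libraries, and 1.05 and 1.02 in WT libraries 2 and 3. Absolute depth is unknown. In whole platelet samples, fewer platelets that carry an mRNA and less of it per platelet cannot be told apart.

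Pdzk1ip1 (ENSMUSG00000028716.15) lies on chromosome 4 at 115088708 to 115093899 of mm10, plus strand, beside Tal1. Its 4 annotated coding transcripts are 826 to 1129 bases long, and 3 of them encode 114 codons. No exon of another annotated gene overlaps it. Ctla2a (ENSMUSG00000044258.10) lies on chromosome 13 at 60934155 to 60936625, minus strand. Its coding transcript has 1373 bases in 5 exons and 137 codons. Exons of the annotated genes Gm49391 and Gm49393 overlap it on the same strand, and neither has a row in the tables. RefSeq lists 2 starts for Ctla2a, and the start farther upstream was used. The 250 bases before each start are shown because both mRNAs were higher in KI platelets. They are from RefSeq on GRCm38.p6, which is mm10, and run 5′ to 3′ along the gene's strand, with the motif matches described next in capitals.

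Pdzk1ip1, chr4:115088458-115088707, plus strand: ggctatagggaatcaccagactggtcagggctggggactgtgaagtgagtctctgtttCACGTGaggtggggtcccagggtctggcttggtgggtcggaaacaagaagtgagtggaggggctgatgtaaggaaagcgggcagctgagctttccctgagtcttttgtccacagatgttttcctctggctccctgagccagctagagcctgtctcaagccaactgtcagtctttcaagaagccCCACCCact

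Ctla2a, chr13:60936626-60936875, minus strand: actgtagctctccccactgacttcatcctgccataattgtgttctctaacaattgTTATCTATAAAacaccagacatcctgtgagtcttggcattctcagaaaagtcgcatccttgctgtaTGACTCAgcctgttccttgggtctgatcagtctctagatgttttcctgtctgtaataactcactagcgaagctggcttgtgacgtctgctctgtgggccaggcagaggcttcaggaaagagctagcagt

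Both strands of these windows were searched for 7 short motifs of factors that act in megakaryocytes or at promoters in general. Positions count back from the start, with -1 as the last base before it. The Pdzk1ip1 window held CACGTG, the E-box of basic helix-loop-helix zipper factors, at -192 to -187, and CCACCC, a motif of KLF factors, at -9 to -4. These occur in 6.02% and 28.1% of the 32851 RefSeq promoter windows of the same length. The Ctla2a window held AGATAA, the GATA factor motif, on the opposite strand at -195 to -190. It held TATAAA, the TATA box motif, at -190 to -185. Those matches overlap by 1 base, and the motifs occur in 9.99% and 12.4% of windows. It also held TGACTCA, the motif of NF-E2 and AP-1, at -129 to -123, present in 4.46% of windows. The ETS motif GGAAG and the RUNX motif TGTGGT, found in 64.1% and 14.0% of windows, had no match in either window. The windows of the 2 genes had no matched motif in common. These matches describe letters only.

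Pdzk1ip1 measured 724, 844 and 867 FPKM in KI libraries 1, 2 and 3, against 371, 317 and 355 FPKM in WT libraries 1, 2 and 3. Every KI library was above every WT library, and the lowest KI value was 1.95 times the highest WT value. The group means were 812 ± 76.8 FPKM in KI platelets and 348 ± 27.4 FPKM in WT platelets (SD, n = 3 each), which is 2.34-fold higher in KI platelets, or 1.22 as a log2 ratio of the means. Its rank by FPKM within the library was 140, 122 and 123 in KI libraries and 228, 256 and 233 in WT libraries. In KI libraries it stood next to Gp5, which encodes a subunit of the platelet receptor for von Willebrand factor, and next to Itgb5, an integrin β subunit, Gpx1, a glutathione peroxidase, Pcmt1 and Ywhaz. In WT libraries its neighbours in rank were Tln1, which encodes the integrin activator talin 1, Slc6a4, which encodes the serotonin transporter, and Adipor1, Eif4ebp1, Tollip and Hmga2-ps1. The coefficient of variation within a group was 9.46% in KI libraries and 7.89% in WT libraries.

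Ctla2a measured 24056, 29558 and 31468 FPKM in KI libraries 1, 2 and 3, against 15771, 14251 and 14001 FPKM in WT libraries 1, 2 and 3. Again no value overlapped, although the gap was narrower, with the lowest KI value 1.53 times the highest WT value. Means were 28361 ± 3848 FPKM in KI platelets and 14674 ± 958 FPKM in WT platelets (SD, n = 3 each), 1.93-fold higher in KI platelets, or 0.95 as a log2 ratio of the means. Its rank was 6, 3 and 3 in KI libraries and 8, 6 and 8 in WT libraries, so it was among the 8 most abundant mRNAs in all 6 libraries. In KI libraries it was ranked between Fth1 and either Cd9 or Ftl1. Fth1 and Ftl1 encode the ferritin chains that store iron, and Cd9 encodes a tetraspanin of the platelet surface. In WT libraries its neighbours in rank were Pf4 and Ppbp, the chemokines of platelet alpha granules, Cd9 and Tsc22d1. The coefficient of variation was 13.6% in KI libraries and 6.53% in WT libraries, and the wider KI spread came with KI library 1, which had the lowest value of both genes among KI libraries and the most haemoglobin RNA. Without that library and the WT library richest in haemoglobin RNA, the fold was 2.55 for Pdzk1ip1 and 2.16 for Ctla2a.

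**Figure D1:**
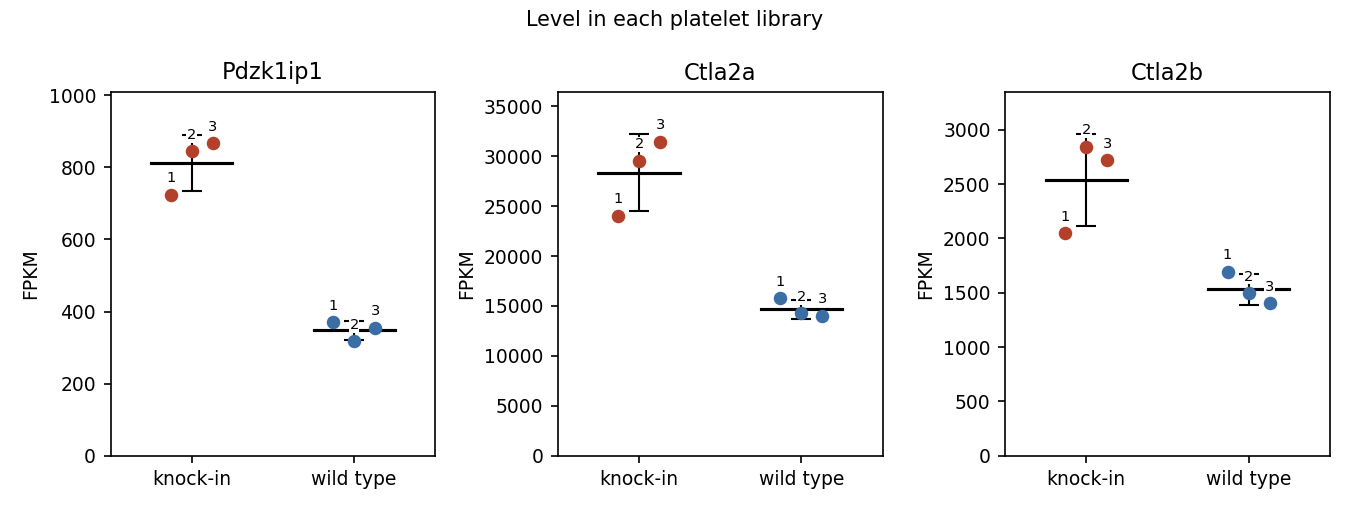
Level of Pdzk1ip1, Ctla2a and its near copy Ctla2b in FPKM (vertical axes, each with its own scale from 0) in each KI library (left) and WT library (right). Points are libraries with their replicate number, the bar is the group mean and the whiskers 1 SD (n = 3 each); in all 3 panels every KI library lies above every WT library, and KI library 1 is the lowest of the KI libraries.

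As a share of total FPKM, Pdzk1ip1 made up 0.0845%, 0.111% and 0.111% in KI libraries 1, 2 and 3, and 0.0523%, 0.0495% and 0.0550% in WT libraries. Its mean share was 0.102% ± 0.0154 in KI platelets and 0.0523% ± 0.00278 in WT platelets (SD, n = 3 each), a ratio of 1.96. Ctla2a made up 2.81%, 3.90% and 4.03% in KI libraries and 2.23%, 2.22% and 2.17% in WT libraries. Its mean share was 3.58% ± 0.672 in KI platelets and 2.21% ± 0.0294 in WT platelets (SD, n = 3 each), a ratio of 1.62. The shares were further apart in Pdzk1ip1 than in Ctla2a, and both differences were smaller than in FPKM because KI totals were higher. Under this scaling to equal totals the median log2 fold change of all tested genes was -0.23, against -0.01 for the values as deposited. With haemoglobin genes left out, Ctla2a took 3.53%, 4.03% and 4.20% in KI libraries and 2.55%, 2.39% and 2.30% in WT libraries.

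The total without haemoglobin genes was on average 114878 FPKM higher in KI libraries than in WT libraries. Ctla2a alone was 13686 FPKM higher, equal to 11.9% of that net difference. Only Tmsb4x, which encodes the actin monomer-binding peptide thymosin β4, had a larger increment, at 43675 FPKM. Pdzk1ip1 added 464 FPKM, or 0.404%.

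Ratios to other abundant platelet mRNAs depended on the partner. Relative to Pf4, Pdzk1ip1 was 1.90 times and Ctla2a 1.57 times as high in KI as in WT libraries. Ctla2a exceeded Pf4 in every KI library, at 1.19 to 1.36 times its FPKM, and stayed below it in every WT library, at 0.731 to 0.903 times. Relative to Ppbp the ratios were 2.78 for Pdzk1ip1 and 2.29 for Ctla2a, and relative to Tmsb4x they were 1.44 and 1.19. The 2 genes were also unequal to each other: Ctla2a was 33.2, 35.0 and 36.3 times as high in FPKM as Pdzk1ip1 in KI libraries, and 42.5, 44.9 and 39.5 times in WT libraries.

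**Figure D2:**
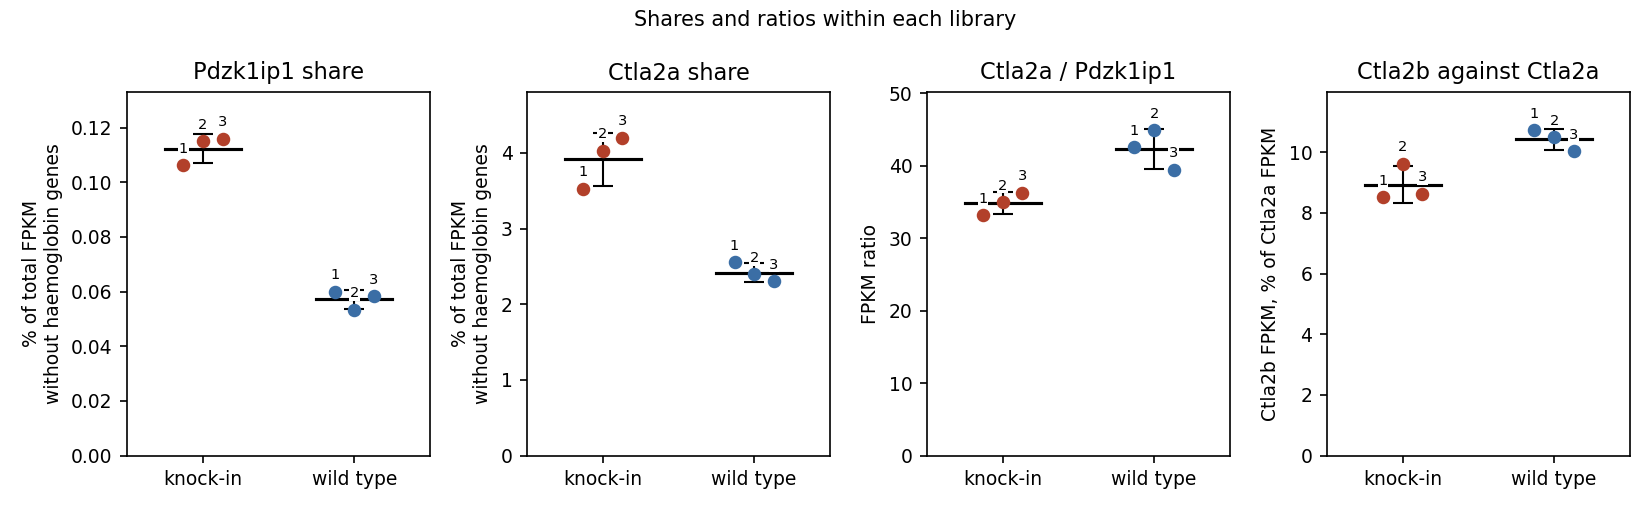
Share of total FPKM without haemoglobin genes for Pdzk1ip1 and Ctla2a (%), the ratio of Ctla2a to Pdzk1ip1 FPKM, and Ctla2b as a percentage of Ctla2a FPKM, in KI (left) and WT (right) libraries. Points are libraries with their replicate number, bars means and whiskers 1 SD (n = 3 each); both shares are higher in every KI library, while both ratios are lower in every KI library than in every WT library.

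To set the 2 genes among mRNAs of like abundance, the 164 genes with a mean over the 6 libraries of at least 579.7 FPKM, that of Pdzk1ip1, were compared by the ratio of group means, without a test. Pdzk1ip1 had the highest ratio of the 164 and Ctla2a the third highest. The 2 genes were chosen on this same contrast, so their places are no support for it. The limit is a mean over both genotypes, and in WT platelets alone Pdzk1ip1 averaged 348 FPKM. At least 2-fold higher in KI platelets were 2 of the 164 (1.22%), Pdzk1ip1 and Smim14, which encodes a small membrane protein and averaged 922 ± 103 FPKM in KI platelets and 448 ± 11.2 FPKM in WT platelets (SD, n = 3 each). Just below Ctla2a came Ost4, a subunit of the enzyme that attaches N-linked sugars, with a fold of 1.87, and Atp6v1f, a subunit of the vacuolar proton pump, with 1.75. Exons of Ost4 overlap those of the measured gene Agbl5 on the other strand, so part of its fragments may belong to Agbl5. At least 2-fold lower were also 2 of the 164 (1.22%): Rsu1, which encodes a partner of the integrin-linked kinase complex, and Thbs1, which encodes the alpha-granule protein thrombospondin 1. Rsu1 averaged 372 ± 51.7 FPKM in KI platelets and 835 ± 115 FPKM in WT platelets, and Thbs1 419 ± 116 FPKM in KI platelets and 1294 ± 186 FPKM in WT platelets (SD, n = 3 each). Like Pdzk1ip1, the genes Smim14, Rsu1 and Thbs1 passed the limit only through the group where they were higher, so these counts depend on the limit. Over tested genes of all levels, 2.24% (over 4 kb) to 10.4% (under 0.5 kb) of a transcript length class were at least 2-fold higher in KI platelets. The median log2 ratio of the 164 genes was 0.16, and in 58 of them every KI value was above every WT value. Among all 4859 tested genes 14.9% did so. Without KI library 1 the number of abundant genes at least 2-fold apart was 9 in place of 4.

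**Figure D3:**
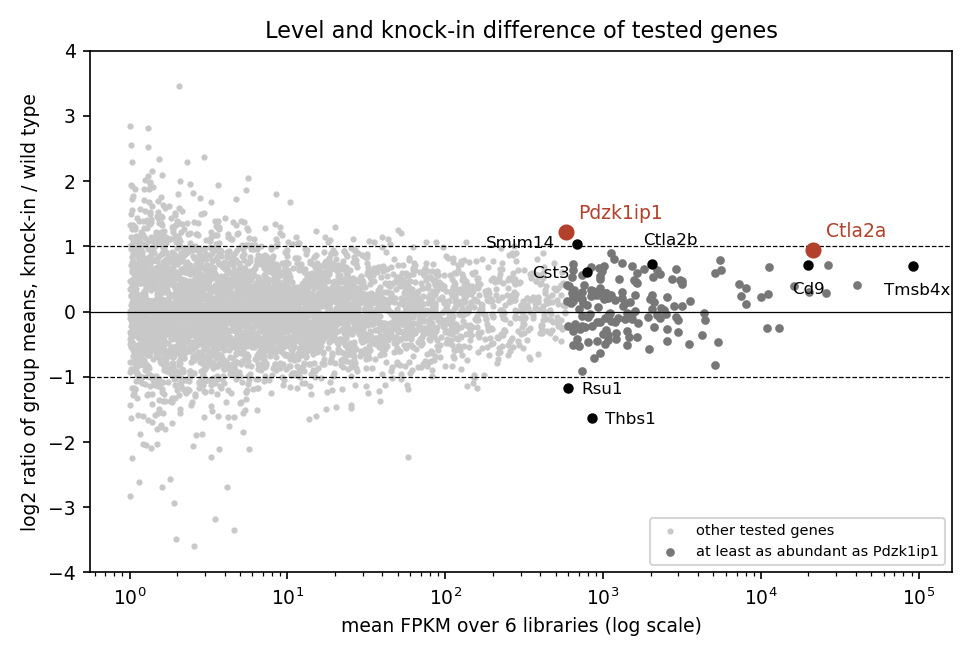
Mean FPKM over the 6 libraries (horizontal, log scale) against the log2 ratio of group means, KI over WT (vertical), for tested genes; 1 gene lies outside the plotted range of ±4 and 8 with a group listed at 0 are not drawn. Dashed lines mark 2-fold; among genes at least as abundant as Pdzk1ip1 (dark grey), Pdzk1ip1 lies highest, and Ctla2a lies just under the line at a level near that of Cd9.

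Transcript length moved with the knock-in difference across the tested genes. Over 154 genes with annotated transcripts under 0.5 kb the median log2 fold change was 0.27, over 1120 genes of 0.5 to 1 kb it was 0.12, and over 1529 genes of 2 to 4 kb it was -0.10. Pdzk1ip1, with a median length of 1003 bases, and Ctla2a, with 1373 bases, both belong to the class of 1 to 2 kb. The 1442 genes of that class had a median of 0.00, and 4.72% of them were at least 2-fold higher in KI platelets. The 54 genes of that class that were at least as abundant as Pdzk1ip1 had a median log2 ratio of 0.08. Pdzk1ip1 lies at the lower edge of that class, since its transcripts are 826 to 1129 bases long. In the class of 0.5 to 1 kb, 6.43% of genes were at least 2-fold higher in KI platelets. The 63 genes of 0.5 to 1 kb that were at least as abundant as Pdzk1ip1 had a median log2 ratio of 0.27. After a length trend was removed from each library the folds were 2.25 for Pdzk1ip1 and 1.93 for Ctla2a.

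Ctla2b, the near copy of Ctla2a, lies on the same strand of chromosome 13 at 60895350 to 60897447, with its start 39178 bases from that of Ctla2a. It measured 2050, 2845 and 2718 FPKM in KI libraries 1, 2 and 3, against 1691, 1496 and 1405 FPKM in WT libraries. Every KI library was above every WT library, as for Ctla2a. Means were 2538 ± 427 FPKM in KI platelets and 1531 ± 146 FPKM in WT platelets (SD, n = 3 each), and Ctla2b rose in KI platelets with a log2 fold change of 0.72 (SE 0.14, limma adjusted p = 0.0169) on the log2(FPKM + 1) scale. In all, 406 of the 4859 tested genes (8.36%) passed that test, 212 higher (4.36%) and 194 lower (3.99%) in KI platelets. Ctla2b was less abundant than its copy and had a lower fold (1.66), a difference that was not tested. It stood at 8.52%, 9.63% and 8.64% of the Ctla2a level in KI libraries and at 10.7%, 10.5% and 10.03% in WT libraries. The call was lost without KI library 2 (adjusted p = 0.0747) or 3 (0.0889) or WT library 2 (0.0767) or 3 (0.0808), and under equal totals (log2 fold change 0.45, 0.116).

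The values of the 2 copies are not wholly separate. Their coding sequences were identical at 96.2% of 339 aligned bases. Of all 50-base stretches of the Ctla2a transcript, 94 of 1324 (7.10%) also occur in Ctla2b transcripts, and those are 8.25% of the Ctla2b stretches. How fragments from such stretches were divided between the copies is not given in the sources used here. Both also overlap Gm49391 on the same strand. The 250 bases before the starts were identical at 208 of 228 aligned bases (91.2%). At the GATA and TATA matches of Ctla2a the copy has neither motif, while both hold TGACTCA; capitals again mark motif matches, including an ETS match in Ctla2b.

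Ctla2a, chr13:60936801-60936830, minus strand: ctaacaattgTTATCTATAAAacaccagac

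Ctla2b, chr13:60897637-60897666, minus strand: ctaacaattgttaactctagagaaccagac

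Ctla2a, chr13:60936736-60936765, minus strand: tccttgctgtaTGACTCAgcctgttccttg

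Ctla2b, chr13:60897572-60897601, minus strand: tgCTTCCtgtaTGACTCAgcctagtccttg

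Other inhibitors of cysteine proteases were mostly scarce. Of 14 genes in a list of Ctla2b and the cystatin family, 12 had a row and 4 passed the filter of a mean of at least 1 FPKM. Of those, 2 rose, none fell and 2 did not pass the test, beside 4.36% higher and 3.99% lower over all tested genes. Besides Ctla2b, Cst3 rose, the gene of cystatin C, a secreted inhibitor of cathepsins. Cst3 measured 808, 985 and 1051 FPKM in KI libraries 1, 2 and 3, against 636, 606 and 623 FPKM in WT libraries, without overlap. Means were 948 ± 126 FPKM in KI platelets and 622 ± 14.9 FPKM in WT platelets (SD, n = 3 each), with a log2 fold change of 0.60 (SE 0.11, limma adjusted p = 0.0154). Cst3 passed neither after the length trend was removed (0.0514) nor under equal totals (0.188), nor without KI library 2 (0.0722) or 3 (0.0741) or WT library 2 (0.0692) or 3 (0.0693). Cst7 and Cstb were at most 2.65 and 5.45 FPKM in any library and did not pass. The median log2 fold change of the 4 tested members was 0.46, beside -0.01 over all tested genes. Ctla2b is among the 4, and its value is not wholly separate from that of Ctla2a, which was selected as higher. The log2 fold changes of the other members were 0.60 (Cst3), 0.31 (Cst7) and 0.05 (Cstb).

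Few of the proteases that such inhibitors could bind were measurable. Of 19 genes in a list of cysteine cathepsins and the cysteine protease legumain (Lgmn), 9 were listed at 0 in all 6 libraries. Of the 19, 5 were tested, Lgmn among them. None of the 5 passed, beside 8.36% of all tested genes. Ctsl, which encodes cathepsin L, did not exceed 0.533 FPKM in any library. The most abundant was Ctsz, which encodes the carboxypeptidase cathepsin Z. Exons of Ctsz overlap those of the measured gene Nelfcd on the other strand, so part of its fragments may belong to Nelfcd. Ctsz averaged 592 ± 13.9 FPKM in KI platelets and 555 ± 11.2 FPKM in WT platelets (SD, n = 3 each), with a log2 fold change of 0.09 (SE 0.08, limma adjusted p = 0.521). Ctsb, which encodes cathepsin B, measured 117, 32.6 and 38.2 FPKM in KI libraries 1, 2 and 3, against 54.5, 32.7 and 27.7 FPKM in WT libraries. Its highest value in each group was in the library richest in haemoglobin RNA, and its log2 fold change of 0.51 (SE 0.45) was not past the threshold (limma adjusted p = 0.545). The median log2 fold change of the 5 tested genes of this list was 0.09.

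Known partners and relatives of Pdzk1ip1 (the partner list) were also low. Of 9 genes listed, 4 were tested and none passed in either direction, beside 8.36% of all tested genes. Pdzk1 itself, the adaptor that names the gene, reached at most 0.479 FPKM, and Slc5a1 and Slc5a2, which encode the sodium-glucose transporters SGLT1 and SGLT2, were listed at 0 throughout. Smim24, which encodes another small membrane protein, measured 20.2, 16.4 and 17.97 FPKM in KI libraries 1, 2 and 3, and 12.8, 11.9 and 12.3 FPKM in WT libraries, without overlap (log2 fold change 0.52, SE 0.15, limma adjusted p = 0.0707). Slc9a3r1, which encodes the PDZ scaffold NHERF1, averaged 5.02 ± 1.46 FPKM in KI platelets and 8.79 ± 1.02 FPKM in WT platelets (log2 fold change -0.72, SE 0.22, limma adjusted p = 0.0848; SD, n = 3 each). Numb, which encodes an endocytic adaptor, averaged 2.80 ± 0.869 FPKM in KI platelets and 5.15 ± 0.113 FPKM in WT platelets (log2 fold change -0.72, SE 0.24, limma adjusted p = 0.0997; SD, n = 3 each). Under equal totals Slc9a3r1 (adjusted p = 0.0403) and Numb (0.0393) passed as lower. The median log2 fold change of the 4 tested genes of this list was -0.32.

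Genes beside the 2 loci were examined within 500 kb of each start. Near Pdzk1ip1, 17 genes had a row, 5 were tested and none passed, beside 8.36% of all tested genes. Tal1, which encodes a transcription factor of blood stem cells and megakaryocytes and starts 32282 bases upstream, measured 17.0, 17.7 and 21.7 FPKM in KI libraries and 20.7, 19.2 and 18.1 FPKM in WT libraries. The groups overlapped (log2 fold change -0.04, SE 0.15, limma adjusted p = 0.900). Stil, the other gene known beside this locus, was listed at 0. Cmpk1, a nucleotide kinase gene, averaged 30.5 ± 0.867 FPKM in KI platelets and 25.6 ± 1.85 FPKM in WT platelets (SD, n = 3 each; log2 fold change 0.25, SE 0.13, limma adjusted p = 0.268). Cyp4x1os averaged 5.56 ± 0.787 FPKM in KI platelets and 2.92 ± 0.396 FPKM in WT platelets (SD, n = 3 each; log2 fold change 0.74, SE 0.21, limma adjusted p = 0.0677). Its exons overlap those of Cyp4x1 on the other strand, and the library kits do not mark strand, so fragments of the 2 cannot be told apart. Cyp4x1, of the cytochrome P450 family, ran the other way, at 2.12 ± 0.551 FPKM in KI platelets and 3.88 ± 2.40 FPKM in WT platelets (SD, n = 3 each; log2 fold change -0.51, SE 0.41, limma adjusted p = 0.495).

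Near Ctla2a, 14 genes had a row, 3 were tested and 1 passed, Ctla2b, beside 8.36% of all tested genes. The next gene on that side, 4930486L24Rik, measured 119, 185 and 144 FPKM in KI libraries 1, 2 and 3, against 110, 78.5 and 83.7 FPKM in WT libraries, without overlap. Its means were 149 ± 33.4 FPKM in KI platelets and 90.6 ± 16.6 FPKM in WT platelets (SD, n = 3 each; log2 fold change 0.71, SE 0.19, limma adjusted p = 0.0538). It passed without KI library 1 (0.0166), without WT library 1 (0.0455) and without both (0.00516). Exons of Gm49392 and Gm49393 overlap 4930486L24Rik on the same strand. Gm49392 also overlaps Ctla2b and Gm49393 also overlaps Ctla2a, so the values of these genes may not be wholly separate. Dapk1, which encodes a death-associated protein kinase, averaged 20.3 ± 3.91 FPKM in KI platelets and 32.4 ± 7.65 FPKM in WT platelets (SD, n = 3 each; log2 fold change -0.64, SE 0.22, limma adjusted p = 0.108). Under equal totals Dapk1 passed as lower (0.0281). The cathepsin genes Ctsj, Ctsq, Ctsr, Cts6, Cts7 and Cts8 of the same stretch, known from mouse placenta, were listed at 0 in all 6 libraries.

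**Figure D4:**
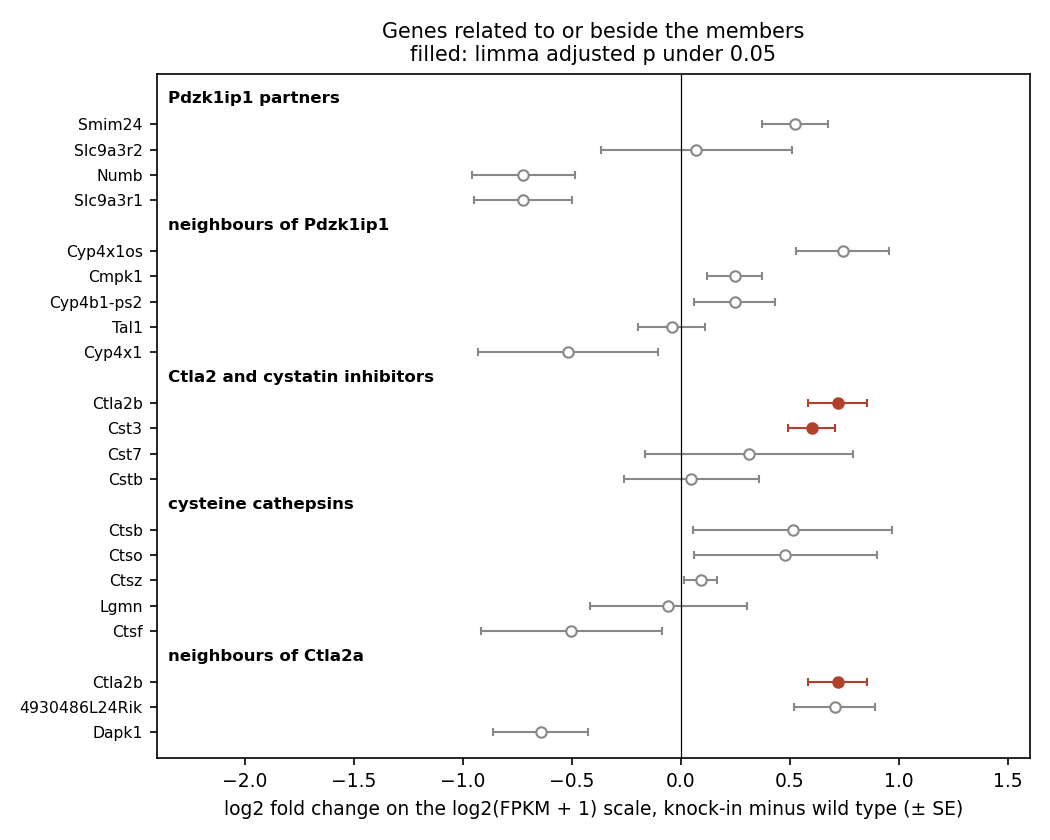
Log2 fold change on the log2(FPKM + 1) scale, KI minus WT, with its SE (horizontal bars). Genes are tested members of the Pdzk1ip1 partner list, cysteine protease inhibitors, cysteine cathepsins with legumain (Lgmn), and genes within 500 kb of either locus. Filled points passed limma at an adjusted p under 0.05; these are Ctla2b, drawn under both its headings, and Cst3, both higher in KI platelets.

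Because Pdzk1ip1 is known from blood stem cells, a list of 24 stem and progenitor genes was examined. Of its 13 tested members 2 rose, 1 fell and 10 did not pass. Over all tested genes 4.36% passed as higher and 3.99% as lower. Cd9 measured 21757, 25557 and 27391 FPKM in KI libraries 1, 2 and 3, against 16754, 13979 and 14583 FPKM in WT libraries, without overlap (log2 fold change 0.72, SE 0.11, limma adjusted p = 0.0105). Ifitm3, which encodes an interferon-induced membrane protein, averaged 518 ± 74.8 FPKM in KI platelets and 321 ± 57.8 FPKM in WT platelets (SD, n = 3 each; log2 fold change 0.69, SE 0.15, limma adjusted p = 0.0296). Cd63, a tetraspanin of dense granules and lysosomes, fell to 37.1 ± 3.36 FPKM in KI platelets, against 57.1 ± 5.02 FPKM in WT platelets (SD, n = 3 each; log2 fold change -0.61, SE 0.13, limma adjusted p = 0.0256). Genes that define stem cells were at or near 0, with Kit and Mycn listed at 0, Procr at most 0.239 FPKM, Hlf at most 0.0180 FPKM and Mecom at most 0.113 FPKM. The median log2 fold change of the 13 genes was -0.05.

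Among 21 transcription factors of megakaryocytes, 17 were tested, none rose and 1 fell, beside 4.36% higher and 3.99% lower over all tested genes. Gata1, the main GATA factor of megakaryocytes and red cell precursors, measured 61.4, 62.8 and 53.8 FPKM in KI libraries 1, 2 and 3, against 93.5, 93.8 and 91.8 FPKM in WT libraries. The groups did not overlap, and Gata1 fell with a log2 fold change of -0.64 (SE 0.11, limma adjusted p = 0.0127). Nfe2, which encodes the larger NF-E2 subunit, averaged 487 ± 27.2 FPKM in KI platelets and 547 ± 34.2 FPKM in WT platelets (SD, n = 3 each; log2 fold change -0.17, SE 0.09, limma adjusted p = 0.290). The ETS factor gene Fli1 averaged 39.4 ± 2.60 FPKM in KI platelets and 51.8 ± 2.39 FPKM in WT platelets (SD, n = 3 each; log2 fold change -0.39, SE 0.12, limma adjusted p = 0.0783), and it passed as lower under equal totals (0.0249). The median log2 fold change of the 17 was -0.20. The Cd9, Ifitm3, Cd63 and Gata1 calls were each lost without KI library 2 (adjusted p = 0.0585, 0.106, 0.0703 and 0.0504, in that order), KI library 3 (0.0648, 0.102, 0.103 and 0.0658), WT library 2 (0.0588, 0.104, 0.0747 and 0.0593) or WT library 3 (0.0563, 0.0527, 0.0987 and 0.0563). Ifitm3 was also lost without WT library 1 (0.0660), and Cd9 (0.0955) and Ifitm3 (0.184) under equal totals. After quantile normalization Cd9 (log2 fold change 0.24, adjusted p = 0.348) and Ifitm3 (0.58, 0.0582) did not pass, and Ifitm3 did not after the length trend was removed (0.0631). Of these calls and those of Ctla2b and Cst3, none passed without the variance trend (adjusted p = 0.0713 to 0.0996), and without a filter on low values Gata1 alone did (0.0420).

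The genes whose pattern over the 6 libraries was most like that of each member were found by Pearson correlation of log2(FPKM + 1) over 2014 genes with a mean of at least 10 FPKM. The correlation spans both genotypes and is a description with no test. Most like Pdzk1ip1 were Usmg5, a small subunit of the mitochondrial ATP synthase (r = 0.998), Trappc4, a vesicle-tethering factor (0.995), Smim14 (0.995), the non-coding RNA Gas5 (0.995) and Fer, a tyrosine kinase (0.994). Most like Ctla2a were Gng5, a G protein γ subunit (r = 0.998), Tceb1, elongin C (0.997), S100a1, a calcium-binding protein (0.996), Serf2 (0.995) and Bin1, a membrane-bending protein (0.995). The 2 members correlated with each other at 0.989, which put Ctla2a in place 11 of the order for Pdzk1ip1 and Pdzk1ip1 in place 25 of the order for Ctla2a. By group mean, the 5 genes most like Pdzk1ip1 were between 1.64-fold (Trappc4) and 2.06-fold (Smim14) higher in KI platelets. Those most like Ctla2a were between 1.43-fold (Bin1) and 1.62-fold (Gng5) higher. Exons of Usmg5, Trappc4, Gas5, Serf2 and Bin1 overlap another measured gene, so part of their fragments may belong to it.

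**Figure D5:**
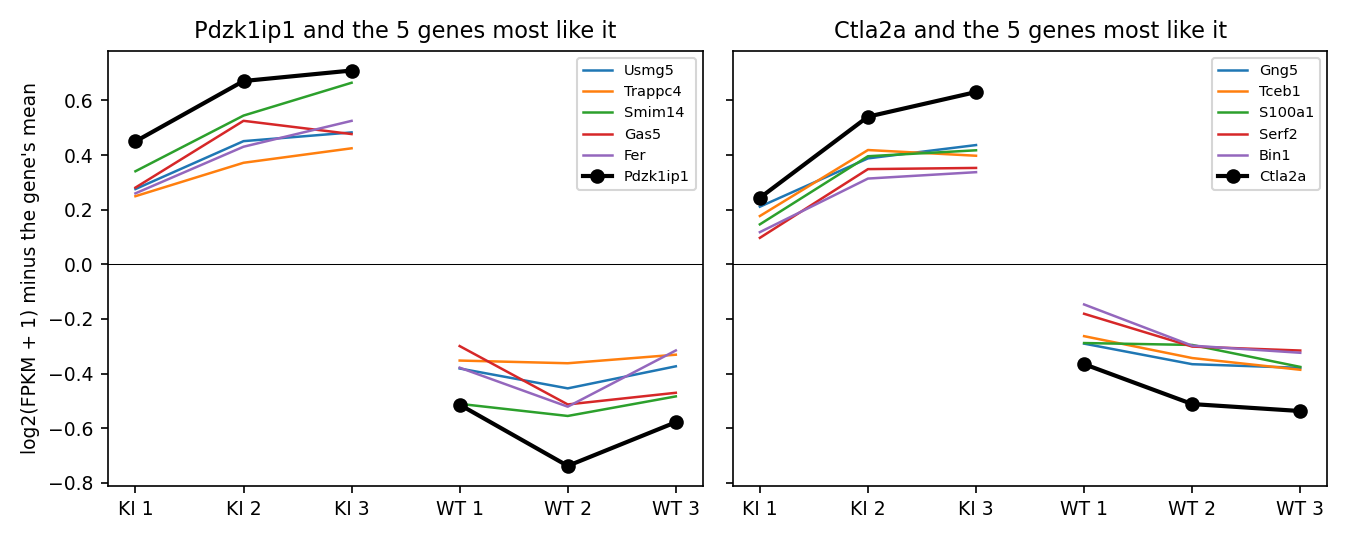
Log2(FPKM + 1) minus the gene's mean over the 6 libraries (vertical), in KI libraries 1 to 3 and then WT libraries 1 to 3 (horizontal), for Pdzk1ip1 (left panel) and Ctla2a (right panel) in black with the 5 genes most like each in colour. All 12 lines are above 0 in the KI libraries and below 0 in the WT libraries; both members span a wider range than their like genes, and KI library 1 is the lowest KI library in each line.

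Markers of T and NK cells and of mast cells and basophils were low in these samples. Of 11 T and NK cell markers 6 were above 0, with a summed level of 5.79 to 8.83 FPKM in KI libraries and 2.67 to 4.42 FPKM in WT libraries, most of it Nkg7. The T and NK cell sum equalled 0.0184% to 0.0299% of the Ctla2a level in KI libraries and 0.0190% to 0.0281% in WT libraries, and its part in the Ctla2a difference was not tested. Cd3e, Cd3d, Gzma, Prf1 and Klrb1c were listed at 0 in all 6 libraries. Mast cell and basophil markers summed to between 0 and 0.790 FPKM in KI libraries and between 0 and 0.238 FPKM in WT libraries, with Mcpt8, Cpa3, Fcer1a and Ms4a2 listed at 0. Erythroid markers summed to between 16977 and 115574 FPKM in KI libraries and between 24649 and 60933 FPKM in WT libraries, so the groups overlapped. Endothelial markers summed to 37.4 to 42.3 FPKM in KI libraries and 33.9 to 40.3 FPKM in WT libraries, most of it Plvap. Monocyte and macrophage markers summed to 7205 to 9128 FPKM in KI libraries and 7035 to 8241 FPKM in WT libraries, nearly all of it Lyz2. Their part in the Ctla2a difference was not tested.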

How the data were processed

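RNA from mouse platelets was sequenced in 3 KI and 3 WT libraries. Per the labels' protocols, cDNA came from the SMART-Seq HT kit and libraries from Nextera XT; these kits do not mark strand. The authors deposited FPKM values by gene symbol, in a table for each library. The submitters' processing notes name TopHat2 2.1.1 and Bowtie2 2.2.8, with SAMtools 0.1.18, then Cuffdiff 2.2.1, and build mm10; settings and annotation are not given in the sources used here. A gene listed at 0 may be a failed estimate. No read counts were analysed here, so absolute depth and counting intervals are unknown.

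The 4859 genes whose FPKM averaged 1 or more over the libraries were tested with limma 3.58.1 (R 4.3.3). Values were log2(FPKM + 1), the model had genotype alone, and it used a variance trend, two-sided moderated tests and Benjamini-Hochberg adjustment over all genes tested, at a threshold of 0.05. Fold changes on that scale understate those of low genes. Single values of 3 against 3 libraries cannot reach an exact two-sided p below 0.1. The script was tested on simulated data. The members and the 5 lists were chosen with earlier results of these data known, and the motifs after the promoter sequences were seen. Named genes were the members, tested list members and neighbours, the 5 genes most correlated with each member, abundant genes at least 2-fold apart and neighbours in rank; abundant genes just under that limit, Tmsb4x, the untested list members given as listed at 0 or by their highest level, and the cell type markers were added after their values were seen. Coordinates and lengths (the median over coding transcripts) are from GENCODE M21 on mm10, with 23986 of the 24346 symbols matched (98.5%); promoter sequences are from RefSeq on GRCm38.p6. An item of the lists is not reported here by name but stays in the tests and counts. Alternatives were other scalings, filters, pseudocounts, no variance trend, removal of a length trend, leaving out libraries and a replicate block.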

Additional observations from a re-analysis of the deposited data

How the results depend on the processing

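Both members kept their direction in every alternative run. They were chosen as higher in KI platelets and no KI value overlapped a WT value, so the kept direction is no support for the contrast. The log2 ratio of means was 1.22 for Pdzk1ip1 and 0.95 for Ctla2a as deposited, against 0.97 and 0.70 under equal totals, 1.11 and 0.61 after quantile normalization, and 1.35 and 1.11 without KI library 1 and WT library 1, the libraries richest in haemoglobin RNA. Leaving out 1 library gave 1.16 to 1.30 and 0.87 to 1.06. Abundant genes at least 2-fold apart numbered 4, and 3 to 9 with a library left out.

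Genes called numbered 406. The count was 0 to 589 with a library left out (0 without KI library 3, with 1002 at an unadjusted p under 0.05; 79 without KI library 2, 41 without WT library 2 and 90 without WT library 3), 678 without KI library 1 and WT library 1, 107 without a filter and 0 without the variance trend (1197 at an unadjusted p under 0.05). Equal totals gave 535, of which 51 were higher and 484 lower, in place of 212 and 194. Calls in the 5 lists together numbered 6 as reported. With a library left out, calls were 0 to 7 over all lists, 0 to 2 for inhibitors, 0 to 3 for stem and progenitor genes, 0 to 2 for transcription factors and 0 to 2 for neighbours, which are those of Ctla2a. Without a filter calls were 1 over all lists, 0 for inhibitors, 0 for stem and progenitor genes and 0 for neighbours; without the variance trend they were 0 in each. Equal totals gave 2 for the partner list, 0 for inhibitors and 2 for transcription factors. Length correction left 1 inhibitor, and quantile normalization 1 stem and progenitor gene. A mean of at least 5 FPKM gave 1 gene of the partner list (Smim24), 2 transcription factors and 2 neighbours. Leaving out KI library 1 and WT library 1 gave 2 transcription factors and 2 neighbours. Signs turned in uncalled genes: Ctsz -0.17 and Cmpk1 -0.0077 under equal totals, Ctsb -0.056 to 0.85 with a library left out (negative without KI library 1), and Tal1 0.048 after length correction, 0.068 without KI library 1 and WT library 1, and -0.14 to 0.020 with a library left out (positive without KI library 1 or WT library 1). The causes were not tested.

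The titles give both groups replicate numbers 1 to 3. Same-numbered libraries deviated together with correlations of 0.158, 0.0235 and 0.141. Differently numbered libraries had negative correlations, down to -0.16 (KI library 1 with WT library 3), except KI library 2 with WT library 3 (0.0674). KI library 2 thus correlated best with a library of another number, and the numbers were not taken as pairs. Whether they are pairs is unknown. With a replicate block 306 genes were called; in the lists Cd63 was lost (adjusted p = 0.0533), leaving 5 list calls, and Ctla2b stayed the 1 neighbour called.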
